A study of Rattus norvegicus with 30 samples.

Results

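Smooth muscle contracts when calcium activates myosin light chain kinase and myosin then pulls on actin filaments that are anchored to adhesion sites at the cell membrane. The oesophagus is wrapped in muscle that in the rat is largely striated, while smooth muscle lies in the thin muscularis mucosae directly beneath the epithelium and in vessel walls. Many of the contractile genes are switched on together by serum response factor and its partner myocardin, which act through a short DNA element named the CArG box. The 33 genes described here are the listed contractile and associated genes of smooth muscle: filament proteins, cytoskeletal linkers, myocardin, receptors and channels, and regulators of calcium, cyclic nucleotides and protein folding. The members are listed by name, with no threshold on their values but with earlier results of these data known, and each gene was represented by the probe set with the highest mean. On the arrays 31 of the 33 were measured, among 14217 genes with a probe set, while Pgm5 and Prkg1 were not analysed here.

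Oesophageal epithelium was sampled from 30 rats (Sprague-Dawley, male), and the RNA of each rat was hybridised to 1 Affymetrix array. Diets began at 4 weeks of age, and every group received 4 doses of 2 mg/kg N-nitrosomethylbenzylamine (NMBA) from week 5, a compound that causes oesophageal tumours in rats. Unedited rats were zinc-deficient and fed freely (ZD, 5 rats) or zinc-sufficient and pair-fed (ZS, 5 rats), and no unexposed rats were analysed here. A further 5 ZD rats received an LNA oligonucleotide against miR-31 (antimiR), as 1 loading dose of 20 mg/kg and 9 doses of 6 mg/kg over 5 weeks, and 5 more ZD rats received 20 additional doses over 20 weeks. Rats lacking miR-31 in every cell (miR-31-/-, made with CRISPR/Cas9 in the same strain) were fed ZD (6 rats) or ZS (4 rats); their wild-type littermates were not analysed here. Per the labels rats were killed 48 h after the last antimiR dose or 15 weeks after the first NMBA dose, which leaves the age of the 5-week antimiR group at sampling open. How the epithelium was separated from the tissue under it is not given in the sources used here.

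All values are log2 expression values, so that a difference of 1 is a factor of 2. Array medians were 5.37 to 5.45 in unedited rats and 5.81 to 5.93 in knockout rats, and these 2 sets appear to have been normalized separately. Levels were therefore not tested between genotypes, and only changes with diet were compared. A gene is said to have risen or fallen only where its limma p, adjusted over all 14217 genes, was under 0.05. The p-values rest on the spread between rats within groups, pooled for each gene over all groups, knockout groups included. A gene with little spread in the groups compared can thus miss the threshold through its spread in others. Markers of keratinocytes averaged between 12.42 and 12.83 on every array, as the tissue label calls for, and the core contractile genes lay at 7.33 to 12.55.

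The promoters are shown first, since the CArG box is a known element of many contractile genes. Of the 31 measured genes, 25 had a promoter entry in RefSeq (build GRCr8, 250 bases before to 50 after the transcription start), and Myh11, Tagln and Myl9 were among the 6 without one. The CArG box was searched as 2 C bases, 6 bases that are each A or T, and 2 G bases, a pattern that reads the same on both strands. An exact box was present in the promoter of 1 of the 25 genes, Fhl1, and in 1.77% of 27457 genes with a promoter. With 1 of the 6 middle bases allowed to be C or G, 2 of the 25 genes had a match, Fhl1 and Acta2, and so did 10.1% of all genes. The 250 bases upstream of both starts are given 5′ to 3′ on the gene's strand, with the boxes in capitals.
Acta2 (chr1:241172504-241172753, minus strand): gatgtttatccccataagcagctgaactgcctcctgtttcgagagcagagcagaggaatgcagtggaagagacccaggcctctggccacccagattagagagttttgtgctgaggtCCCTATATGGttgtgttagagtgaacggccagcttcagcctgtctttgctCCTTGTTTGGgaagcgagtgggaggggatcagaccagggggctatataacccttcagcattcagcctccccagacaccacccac
Fhl1 (chrX:139638246-139638495, plus strand): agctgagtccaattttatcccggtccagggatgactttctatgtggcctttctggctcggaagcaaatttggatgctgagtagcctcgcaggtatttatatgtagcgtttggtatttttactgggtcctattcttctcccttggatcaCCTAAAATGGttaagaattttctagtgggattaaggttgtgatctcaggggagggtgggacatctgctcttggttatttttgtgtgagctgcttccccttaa

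In Acta2, smooth muscle alpha actin, the boxes begin 134 and 84 bases before the start, and each has 1 middle base that is not A or T. In Fhl1, a LIM domain protein of muscle, the box begins 102 bases before the start of 1 of its annotated promoters. These matches describe letters in the windows searched. Boxes farther upstream or in introns were not searched.

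Zinc deficiency in unedited rats came with lower values of every one of the 31 measured genes, and 19 of them fell. None rose. Over all genes, 6.95% fell in this comparison and 13.9% changed in either direction. The median change was -1.08 over the 31 genes against 0 over all genes. Of the 31 genes, 21 had all ZD arrays below all ZS arrays, which was true of 5.45% of all genes. In whole-tissue RNA, fewer cells of a type and less RNA per cell cannot be told apart.

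**Figure D1:**
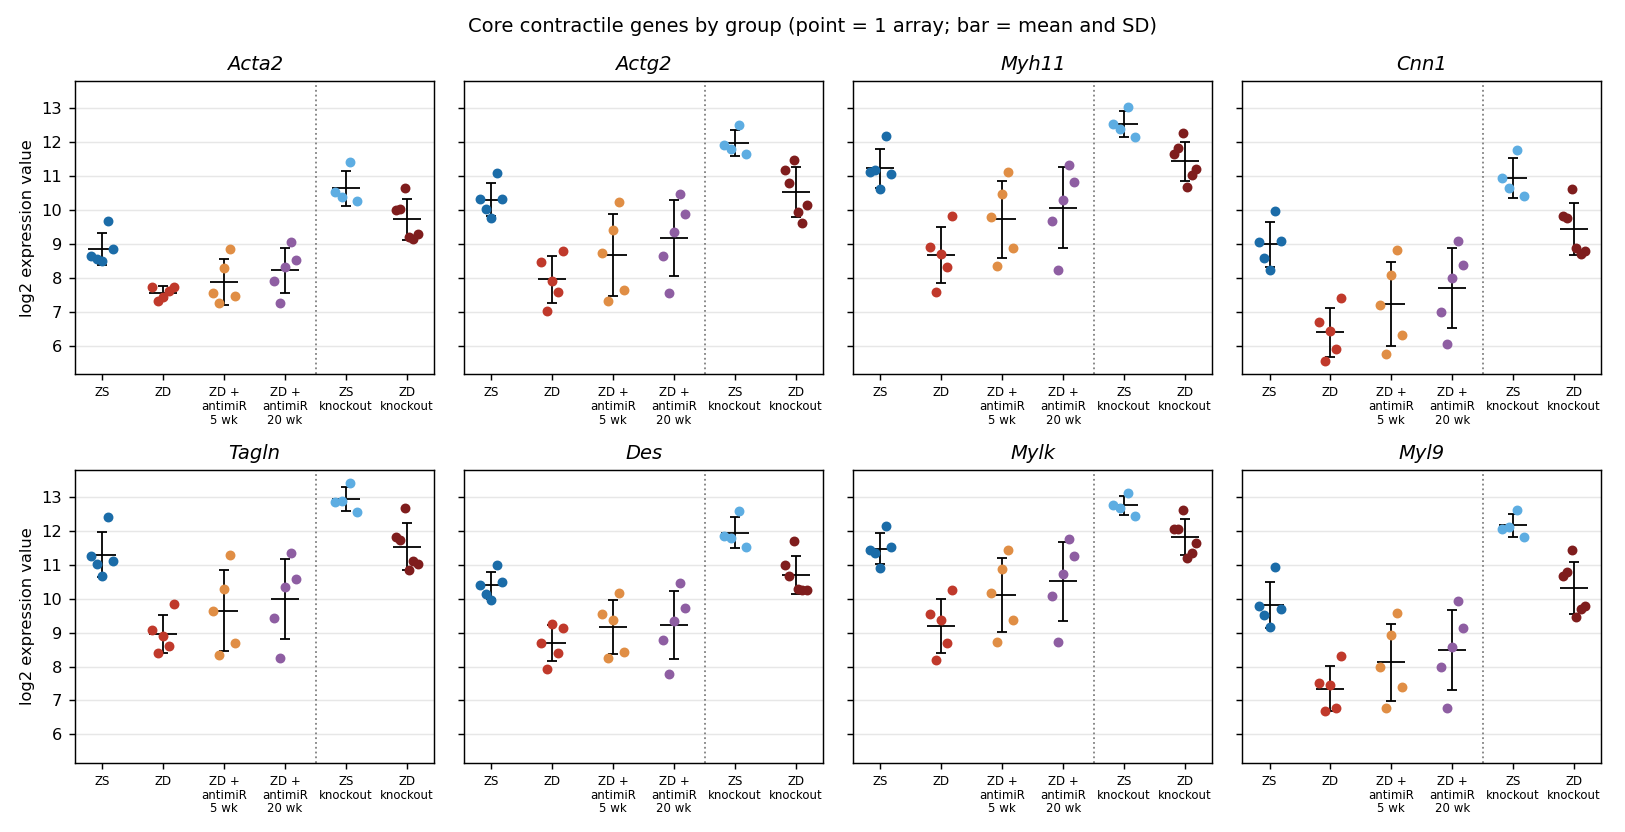
Log2 expression values of the 8 core contractile genes (y axis) in the 6 groups (x axis); each point is 1 array and the bars are the mean and SD, with the knockout arrays right of the dotted line. For each of the 8 genes the 5 ZD arrays lie below the 5 ZS arrays in unedited rats, and the antimiR groups span a wider range than either.

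The filament genes held the largest falls. Myh11, the smooth muscle myosin heavy chain, lay at 11.12, 11.17, 10.61, 12.16 and 11.06 on ZS arrays 16 to 20 and at 8.92, 7.57, 8.7, 8.32 and 9.81 on ZD arrays 11 to 15. Its highest ZD value was thus below its lowest ZS value. It fell by 2.56 (SE 0.5, adjusted p = 0.00159 by limma, n = 5 per diet), a factor of 5.89. Cnn1, calponin, which binds actin and damps the myosin motor, lay at 9.04, 8.58, 8.24, 9.98 and 9.09 on ZS and at 6.69, 5.55, 6.42, 5.9 and 7.41 on ZD. It fell by 2.59 (SE 0.54), more than any other of the 31 genes, and its groups did not overlap.

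Other core genes moved with these. Myl9, the regulatory light chain that the kinase phosphorylates, fell by 2.46 (SE 0.51). Its mean was 9.81 (SD 0.66) on ZS and 7.35 (SD 0.65) on ZD. Actg2, enteric gamma actin, fell by 2.35 (SE 0.5). Tagln, the actin-bundling protein transgelin, fell by 2.33 (SE 0.51), and Mylk, the light chain kinase itself, fell by 2.27 (SE 0.48). The 2 core genes with the smallest falls were Des and Acta2. Des, the muscle intermediate filament desmin, lay at 10.41, 10.14, 9.95, 10.99 and 10.49 on ZS and at 8.7, 7.94, 9.24, 8.4 and 9.13 on ZD, and fell by 1.71 (SE 0.4). Acta2 lay at 8.65, 8.56, 8.5, 9.66 and 8.84 on ZS and at 7.74, 7.31, 7.43, 7.62 and 7.73 on ZD. Its ZD values sat close together and below all ZS values, and it fell by 1.27 (SE 0.33, adjusted p = 0.0109 by limma). The mean change of these 8 core genes was -2.19, or 4.57-fold lower on ZD.

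The 5 filament genes outside the core had changes of -1.46 to -0.81. Tpm1 and Tpm2, tropomyosins that lie along actin, changed by -1.46 (SE 0.34) and -0.81 (SE 0.22), and both fell. Lmod1, leiomodin, which seeds actin filaments, fell by 1.4 (SE 0.32). Smtn (smoothelin) and Cald1 (caldesmon, an actin-binding brake on contraction) did not pass, with changes of -0.85 (SE 0.3, adjusted p = 0.0547 by limma) and -0.87 (SE 0.37, adjusted p = 0.112). In all, 11 of 13 filament genes fell, with a median change of -1.71. The choice of probe set mattered for the tropomyosins: the 7 sets of Tpm1 gave -1.46 to -0.07, and the second set of Tpm2 gave 0.27 (SE 0.81). Tropomyosin genes are also expressed in striated muscle, whose markers varied widely between arrays, as given below. This limit may extend to other listed genes, named here after their values were seen. On ZD array 13, with a core mean of 8.18, the median of its group, Des (9.24), Synm (8.56), Fhl1 (10.66) and Hspb6 (8.6) were each highest. Tpm1 (9.37) and Tpm2 (11.2) were not the highest there. An alternative fit used the level of the skeletal muscle markers as a covariate, and the calls of Des and Hspb6 were kept in it. Beyond that fit, whether striated muscle entered these values, and the departures of these genes from the core, was not tested.

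Among the linkers that tie filaments to the membrane, 3 of 8 fell. Synpo2, an actin-bundling protein of the Z-disc and dense body, lay at 9.78, 9.77, 9.14, 10.88 and 9.87 on ZS and at 8.05, 6.62, 7.34, 7.14 and 8.58 on ZD. Its groups did not overlap, and it fell by 2.34 (SE 0.49, adjusted p = 0.0025 by limma), as much as most core genes. Synm, the intermediate filament protein synemin, fell by 1.65 (SE 0.36), and Flna, the actin cross-linker filamin A, fell by 1.08 (SE 0.31), a call lost without ZS array 19. The other sets of Synm, near 4 log2 units on both diets, gave -0.09 and -0.15, and the second set of Synpo2 gave -0.68 (SE 0.29).

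The remaining 5 linkers did not pass. Vcl, vinculin, a protein of adhesion sites in many cell types, lay at 10.12, 10.15, 10.03, 10.38 and 9.9 on ZS and at 9.83, 9.95, 9.82, 9.93 and 9.68 on ZD. ZS array 20 lay below ZD arrays 12 and 14, and the change was -0.28 (SE 0.1, adjusted p = 0.0646 by limma). The LIM domain proteins Csrp1 and Fhl1 changed by -0.57 (SE 0.22) and -1.08 (SE 0.48), the adhesion molecule Mcam by -0.81 (SE 0.3) and the integrin Itga8 by -0.56 (SE 0.32).

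Myocd, myocardin, was low throughout. Its values were 4.01, 3.73, 3.64, 3.95 and 4.16 on ZS and 3.44, 3.54, 2.83, 3.15 and 3.15 on ZD. The groups did not overlap, and it fell by 0.67 (SE 0.18, adjusted p = 0.0121 by limma). In a list of 15 measured genes of smooth muscle transcription that includes Srf, 1 fell, against 6.95% of all genes, and none rose. That gene was Foxf1, a forkhead factor of gut mesenchyme, which fell by 0.87 (SE 0.29), while Mef2d, Smad3 and Klf4 did not pass, with changes of -0.29, -0.43 and 0.19.

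Of the receptors and channels, 3 of 5 fell. Tacr2, the neurokinin A receptor that drives gut smooth muscle contraction, lay at 4.62, 4.39, 4.57, 5.89 and 4.28 on ZS and at 3.73, 3.54, 3.58, 3.56 and 3.86 on ZD. ZS array 19 stood well above the other 4. The gene fell by 1.1 (SE 0.36, adjusted p = 0.0422 by limma), a call that was lost in 7 of 10 fits that left out 1 array (ZD arrays 11 to 14 and ZS arrays 16, 18 and 19). Kcnmb1, the beta subunit of the large-conductance calcium-activated potassium channel, fell by 0.57 (SE 0.18), and its call was lost without ZD array 12 or 14 or ZS array 19. Chrm2, an acetylcholine receptor, fell by 0.24 (SE 0.07), from 4.35 to 4.58 on ZS to 4.14 to 4.34 on ZD, a call lost without ZD array 12 or ZS array 17. Chrm3, the muscarinic receptor that triggers contraction, and P2rx1, an ATP-gated channel, did not pass, with changes of -0.7 (SE 0.25) and -0.34 (SE 0.22). In both, all ZD values lay below all ZS values.

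The regulators were mixed. Pln, phospholamban, the brake on the calcium pump, and Pde5a, the cyclic GMP phosphodiesterase, did not pass, with changes of -0.26 (SE 0.23) and -0.43 (SE 0.17). The small heat shock protein Hspb6, known for its part in smooth muscle relaxation, lay at 8.89, 9, 8.3, 9.46 and 9.27 on ZS and at 7.89, 7.19, 8.6, 6.57 and 7.18 on ZD. One ZD array, number 13, lay inside the ZS range, and the gene fell by 1.5 (SE 0.47, adjusted p = 0.0312 by limma), a call lost in 7 of 10 fits without 1 array (ZD arrays 12, 14 and 15 and ZS arrays 16, 17, 19 and 20). Its relative Hspb8 lay at 7.91, 8, 8.18, 8.95 and 8.23 on ZS and at 8.4, 7.23, 7.63, 8.35 and 8.05 on ZD. These ranges overlapped widely, and the change was -0.32 (SE 0.44).

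**Figure D2:**
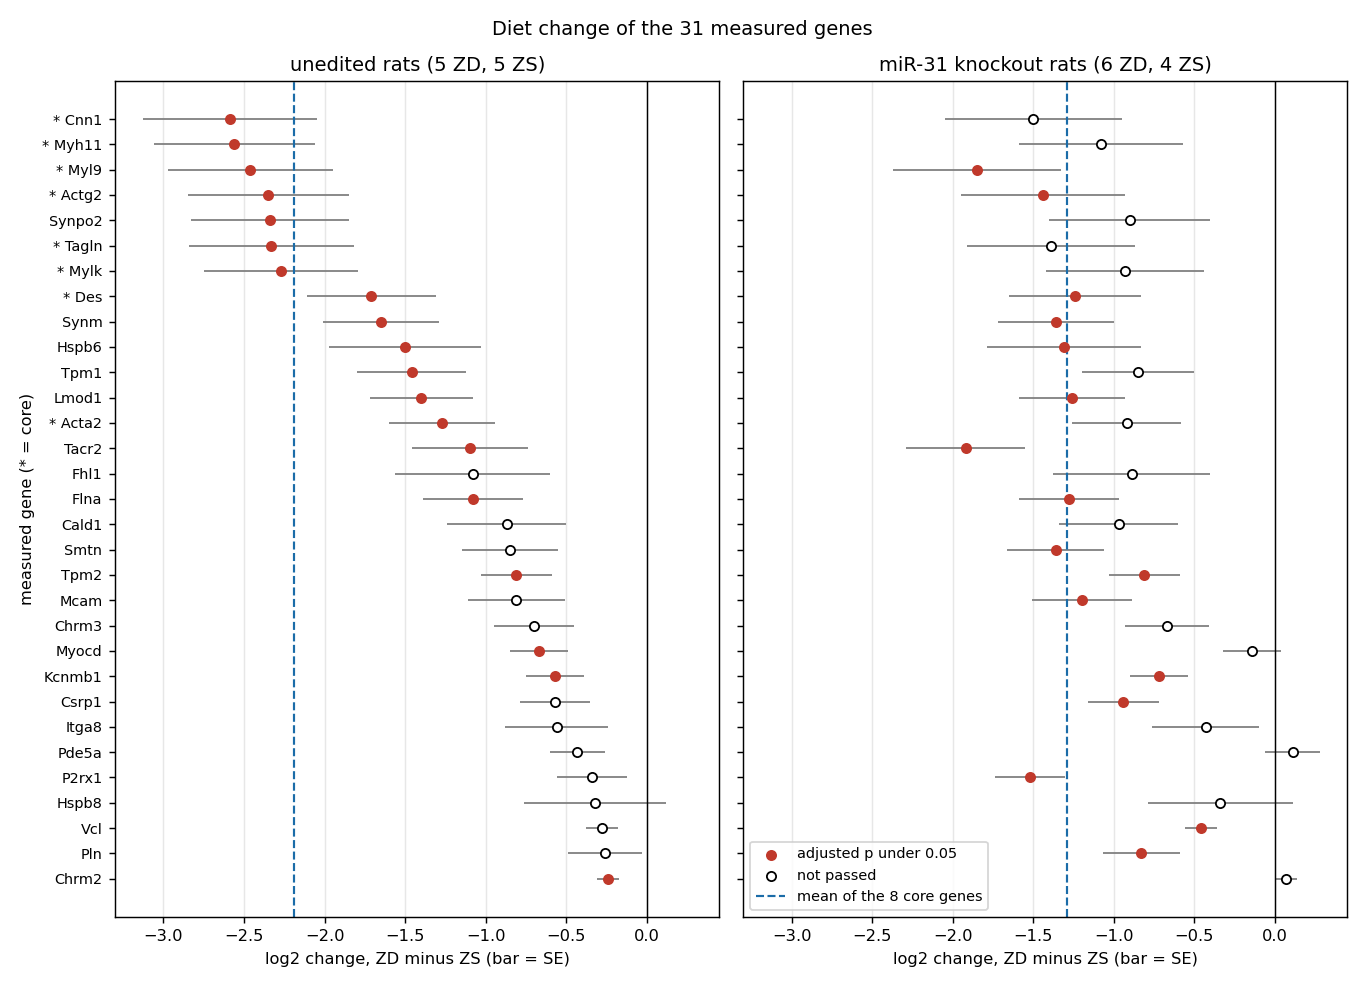
Log2 change from ZS to ZD (x axis) of the 31 measured genes (y axis, core genes starred, sorted by the change in unedited rats), with the SE, in unedited and in knockout rats; filled points passed an adjusted p of 0.05, and the dashed line is the mean change of the 8 core genes. In unedited rats the changes run from -2.59 to -0.24, in knockout rats from -1.92 to 0.11.

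A fall in the share of muscle in the sample would multiply every gene made there alone by the same factor, that is, shift all of them by the same log2 amount. The comparison asked by the design of the list was therefore how far each gene departed from the core. The changes spanned -2.59 to -0.24 and had an SD of 0.78 over the 31 genes. With the mean of the core subtracted from every gene on each array (for a core gene, the mean of the other 7), 18 of 31 genes differed from the core at an adjusted p under 0.05 by limma, all of them less lower than the core. That call was also made for 99% of all genes, since most genes did not follow the core. The core was chosen with earlier results of these data known. Its median change was -2.34, against -0.81 for the 23 other members. That the departing genes were all less lower is thus not independent of the choice of core. None of the 8 core genes departed by this test. The nearest was Acta2, whose change lay 1.05 above that of the other 7 (SE 0.53, adjusted p = 0.05).

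The departures covered every role. Vcl lay 1.92 above the core (SE 0.51, adjusted p = 0.000206 by limma), Pln 1.94, Hspb8 1.87, Itga8 1.63, Csrp1 1.62, Myocd 1.52, Tpm2 1.39 and Smtn 1.34. A common shift would hold only for genes made in smooth muscle alone. Vcl is a protein of many cell types, and tropomyosin genes are also expressed in striated muscle. The part of other cells in the departures was not tested for any of these genes. All 5 receptor and channel genes departed, by 1.1 (Tacr2) to 1.95 (Chrm2). Their ZS means were 4.12 to 4.91 and that of Myocd was 3.9, while the lowest value on any array was 2.11. A change of -2.19, the mean of the core, had little or no room there, so these departures cannot be told apart from the floor. Single arrays also decided some of the calls. Leaving out any of ZD arrays 12 and 14 and ZS arrays 16, 17 and 20 ended the call of Tacr2. Those of Fhl1 (ZD arrays 12 and 13, ZS arrays 17 and 18), Flna (ZD arrays 12 and 14, ZS array 20) and Cald1 (ZD array 12) were also lost without the single arrays given. Among the genes outside the core, 5 did not depart by this test: Synpo2, at -0.15 (SE 0.51), Synm, at 0.54, Hspb6, at 0.7, Tpm1, at 0.73, and Lmod1, at 0.79. The SE of this test was between 0.5 and 0.53 for every one of the 31 genes. In limma the variance of each gene is drawn toward one shared by all genes, most of which did not follow the core. The SE was thus 0.51 even for Actg2, whose difference from the other core genes spanned -0.36 to 0.16 on ZD and -0.1 to 0.08 on ZS. Departures under about 1 could therefore not be called, also for genes that kept close to the core.

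A test per gene over the arrays, chosen after the data were seen, uses each gene's own spread. The two-sided exact permutation test of gene minus core, with 252 arrangements, gave an unadjusted p under 0.05 for 26 of 31 genes, 23 less lower and 3 lower than the core, and for 98.8% of all genes. The count is thus not particular to these genes, and the test serves to describe single members. Its smallest possible p is 0.00794. The 3 genes that lay lower than the rest of the core were Myh11, at -0.42 (exact p = 0.0317), Cnn1, at -0.46 (exact p = 0.00794), and Myl9, at -0.3 (exact p = 0.00794). Acta2 (exact p = 0.00794) and Des, at 0.55 (exact p = 0.0159), were less lower. Over the core genes these differences cancel by construction, so those above and those below the rest of the core are not separate results. Actg2, Tagln, Mylk, Synpo2 and Hspb6 had an exact p of 0.0952 or more. These p-values are not adjusted for the 31 genes tested.

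Level and change were related across the genes. Spearman's rho between the mean level and the change in unedited rats was -0.55 over the 31 genes, a description, since the genes share arrays. The 8 genes with a mean under 6 log2 units had a median change of -0.57, and the others one of -1.4. Dim probe sets on such arrays have a floor, and its part in the smaller changes was not tested. Bright genes were not alike. Vcl, Tpm2, Csrp1 and Fhl1 had ZS means of 10.12 or more and changes of -0.28 to -1.08, less than the core. Tpm1, with a ZS mean of 11.05, changed by -1.46. The core genes Myh11, Tagln and Mylk, with ZS means of 11.22 to 11.47, changed by -2.56 to -2.27.

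The arrays within a group also differed in their core level, which allows the genes to be compared without the diets. The core mean was 10.25, 10.04, 9.72, 11.17 and 10.26 on ZS arrays 16 to 20 and 8.33, 7.33, 8.18, 7.74 and 8.91 on ZD arrays 11 to 15. The lowest and highest arrays of a group were thus 0.95 to 2.84 apart over the 6 groups. A gene that follows the core in proportion has a within-group slope of 1 on it. Slopes over the 30 arrays, as deviations from the 6 group means, had a median of 1.08 for the core genes, each against the other 7, and 0.56 for the other 23, with a range from 0 (Chrm2) to 1.19 (Cnn1).

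**Figure D3:**
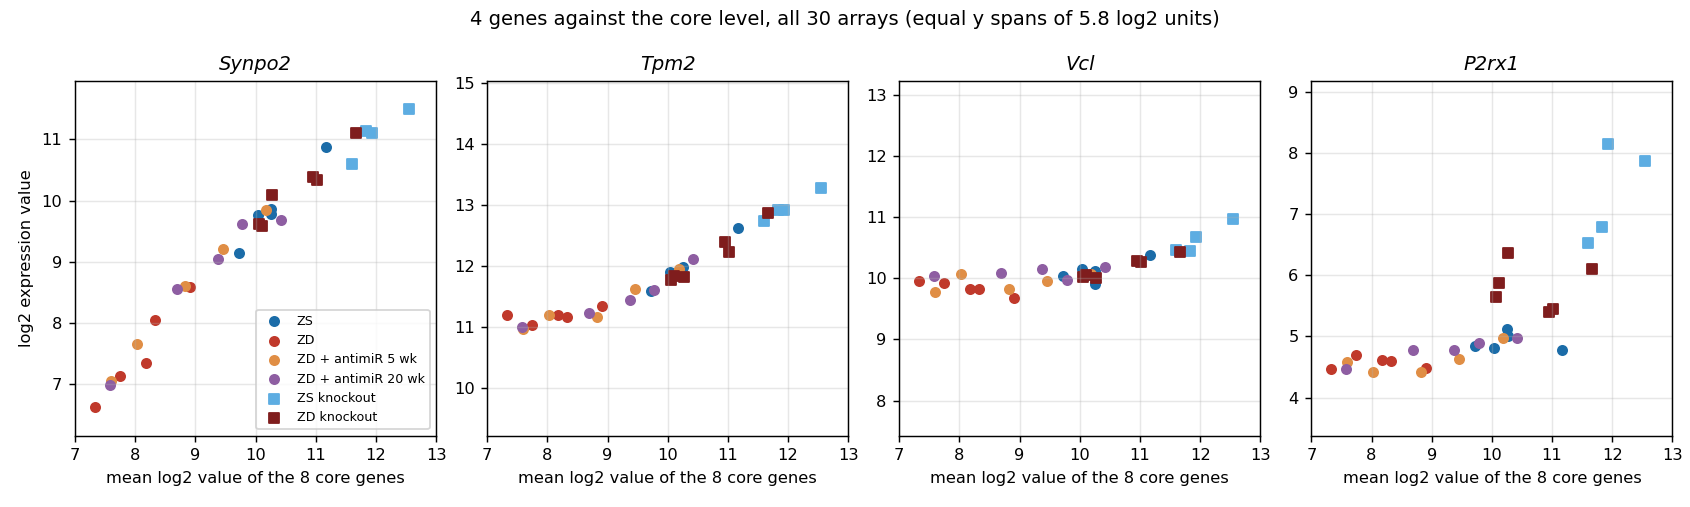
Log2 expression values of 4 genes (y axes, equal spans) against the mean log2 value of the 8 core genes (x axis) on all 30 arrays, with colours for the groups and squares for knockout rats. Synpo2 follows the core with a slope of 1.03, Tpm2 with 0.41 and Vcl with 0.09, and P2rx1 is high on the knockout ZS arrays.

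Synpo2, with a slope of 1.03 (SE 0.05), lay within the slopes of the core genes. Of its variation within groups 94.5% lay along the core level, against 84.2% to 98.1% for the core genes. Acta2 had the lowest slope of the core, 0.62 (SE 0.06), and Des was next at 0.8 (SE 0.06). Tpm1 had a slope of 0.69, and slopes below that of Acta2 were found for genes that include Lmod1 (0.59), Flna (0.56), Tpm2 (0.41), Csrp1 (0.39), Myocd (0.21) and Vcl (0.09).

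The diet change was next set beside the within-group slope. For this comparison the slope was taken over the 20 unedited arrays alone, where it had a median of 1.1 for the core genes and 0.46 for the other 23. It was 0.55 for Acta2, 0.37 for Tpm2 and 1.07 for Synpo2. This slope times the diet change of the core lay within 1 SE of the observed change for 24 of 31 genes in unedited rats, with a median absolute difference of 0.08. The same count was not made over all genes, so whether it is particular to these 31 is not known. A gene with a slope and a change that are both small also meets it. For Acta2 the product was -1.28 and the observed change -1.27. For Tpm2 they were -0.8 and -0.81, for Synpo2 -2.34 and -2.34, for Hspb6 -1.49 and -1.5, and for Lmod1 -1.12 and -1.4. A gene with a shallow slope among rats of one diet thus mostly had a small change between the diets.

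The other 7 genes were Cald1, Vcl, Mcam, Itga8, Myocd, Chrm2 and Hspb8. Hspb8 lay farthest off, with a product of -1.64 and an observed change of -0.32, followed by Itga8 (-1.19 and -0.56) and Cald1 (-1.46 and -0.87). Myocd differed the other way, with a product of -0.24 and an observed change of -0.67. The 10 ZS and ZD arrays enter both quantities, so this is a description with no test.

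**Figure D4:**
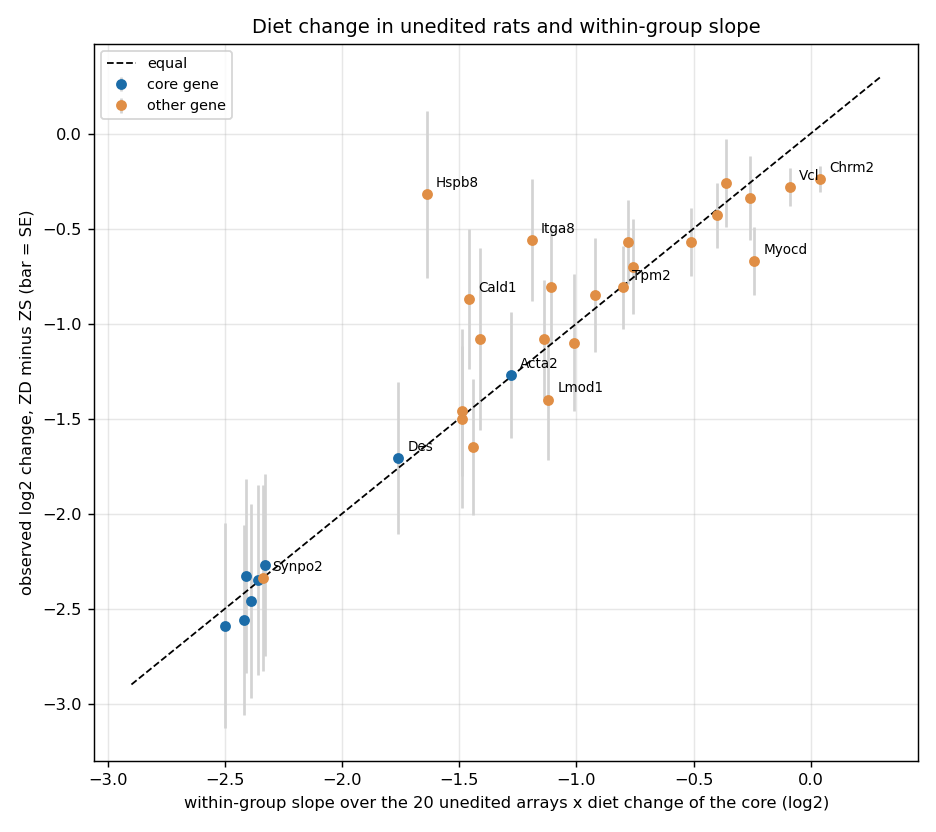
Observed log2 change from ZS to ZD in unedited rats (y axis, with SE) against the within-group slope over the 20 unedited arrays times the diet change of the core (x axis) for the 31 genes, with the dashed line marking equality. Most genes lie along the line, from Synpo2 at -2.34 to Chrm2, while Hspb8, Itga8 and Cald1 lie above it.

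Knockout rats were lower on ZD as well. There 16 of 31 genes fell and none rose, against 12% of all genes that fell and 21.4% that changed in either direction. The median change was -0.94, and 29 of 31 were below 0. In 8 genes all ZD arrays lay below all ZS arrays, which was true of 7.15% of all genes. The core mean was 11.93, 11.83, 12.55 and 11.6 on the 4 ZS arrays and between 10.06 and 11.67 on the 6 ZD arrays, with a median of 10.61, so the groups overlapped on 1 array of each. The mean change of the core was -1.29, or 2.45-fold lower, and 3 of 8 core genes fell: Myl9 (-1.85, SE 0.52), Actg2 (-1.44, SE 0.51) and Des (-1.24, SE 0.41). Cnn1, at -1.5 (SE 0.55, adjusted p = 0.0527 by limma), and Tagln, at -1.39 (SE 0.52, adjusted p = 0.0552), missed the threshold. The calls of Actg2 and Des were lost in 8 and 4 of 10 fits that left out 1 array (for Actg2, any but ZD arrays 34 and 36; for Des, ZS array 32 or ZD array 37, 38 or 39). Without ZS array 32, which had the highest core level, 9 of the 31 genes fell, and Myl9 was not among them. Without ZD array 36, 22 did.

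Of the 23 genes outside the core, 13 fell in knockout rats. Tacr2 lay at 7.6, 8.65, 8.81 and 8.19 on ZS and at 5.45 to 7.72 on ZD, with a median of 6.45. It fell by 1.92 (SE 0.37, adjusted p = 0.000656 by limma, n = 4 and 6), with an overlap of 1 array. Falls were also called for Smtn (-1.36, SE 0.3), Synm (-1.36, SE 0.36), Flna (-1.28, SE 0.31), Mcam (-1.2, SE 0.31), Csrp1 (-0.94, SE 0.22), Pln (-0.83, SE 0.24) and Kcnmb1 (-0.72, SE 0.18), of which those of Mcam and Pln were lost without ZS array 32, as was that of Tpm2. Hspb6 lost its call in 8 of the 10 fits without 1 array (any but ZD arrays 34 and 36). Vcl fell by 0.46 (SE 0.1), but its second probe set rose by 0.42 (SE 0.12, adjusted p = 0.0115 by limma over all probe sets) and its dimmest set fell by 0.98 (SE 0.14).

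In P2rx1 the diet change differed between the genotypes. In unedited rats it lay at 5.12, 4.81, 4.84, 4.78 and 5 on ZS and at 4.6, 4.47, 4.61, 4.7 and 4.48 on ZD. The knockout ZS arrays lay at 8.14, 6.79, 7.86 and 6.52, and the 6 ZD arrays at 5.4 to 6.36, with a median of 5.76, all below the ZS arrays. It fell by 1.52 in knockout rats (SE 0.22, adjusted p = 3.34e-05 by limma), against -0.34 (SE 0.22) in unedited rats. The unedited ZS and ZD groups did not overlap. Their SDs were 0.14 and 0.09, against 0.79 on knockout ZS, and the SE is pooled over all groups. The difference of these changes was -1.19 (SE 0.31, adjusted p = 0.0191 by limma), a call lost without knockout ZS array 32 and with array weights. A second probe set fell by 1.98 in knockout rats (SE 0.18) and changed by -0.16 in unedited rats. P2rx1 followed the core little within knockout groups, with a slope of 0.21 (SE 0.37). On the unedited ZS and ZD arrays it lay at 4.47 to 5.12, where a fall has less room. The knockout arrays are also the set that appears to have been normalized separately. The part of level and of normalization set in the difference was not tested.

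Of the 31 genes, 1 other passed the test of that difference, which 8.39% of all genes passed. It was Chrm2, at 0.31 (SE 0.1, adjusted p = 0.0461), whose values lay between 4.01 and 4.81 on all 30 arrays; its call was lost in 16 of 28 alternative fits, 12 of which left out 1 array. For Myh11, Synpo2 and Mylk, the differences of the diet changes were 1.47 (SE 0.72), 1.44 (SE 0.7) and 1.33 (SE 0.68), and none passed.

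In knockout rats the 31 changes had an SD of 0.5. By limma 3 genes were less lower than the core, Pde5a by 1.41, Chrm2 by 1.37 and Myocd by 1.16 (none of them without ZS array 32 or ZD array 37, 38 or 39, and Myocd called only when ZD array 34 or 36 was the one left out), a call made for 78.1% of all genes. The exact permutation test, with 210 arrangements and a smallest p of 0.00476, gave an unadjusted p under 0.05 for 17 of 31 genes and for 88.9% of all genes. Of the 17, 15 were less lower than the core, among them Acta2 at 0.43 (exact p = 0.00476) and Vcl at 0.83 (exact p = 0.019). Myl9, at -0.64 (exact p = 0.00476), and Tacr2, at -0.62 (exact p = 0.0429), were lower. Here too the differences of the core genes cancel by construction. Slopes over the 10 knockout arrays had a median of 0.86. The product of slope and core change lay within 1 SE of the observed change for 20 of 31 genes, again with no count over all genes beside it.

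None of the 31 genes passed the limma test for antimiR against untreated ZD, which does not show that none changed. In the mean 27 of 31 lay above ZD after 5 weeks and 29 of 31 after 20 weeks. Of all genes 48.5% and 51.4% lay below ZD. The 31 genes share arrays, so these signs are not independent. After 5 weeks 0 of 31 passed against untreated ZD, as did 0% of all genes, with 2 genes, Myh11 and Pde5a, at an unadjusted p under 0.05, where 7.18% of all genes were. After 20 weeks it was 0 of 31 against 0.647% of all genes, with 8 at an unadjusted p under 0.05, where 14.8% of all genes were. Both comparisons use the same 5 untreated ZD arrays, which also serve the diet comparison. The core mean lay at 8.82, 7.6, 9.46, 10.18 and 8.03 on 5-week arrays 6 to 10 and at 8.69, 7.58, 9.37, 10.42 and 9.78 on 20-week arrays 1 to 5. Each antimiR group thus ran from the ZD range into the ZS range, with SDs of 1.05 and 1.09 against 0.6 on untreated ZD.

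After 20 weeks the 8 core genes were all above ZD, with a median difference of 1.18 and none past the threshold. Myh11 lay at 9.67, 8.22, 10.28, 11.31 and 10.82, for a difference of 1.39 (SE 0.5, adjusted p = 0.179 by limma), overlapping both untreated groups. Without 20-week array 2, the lowest of its group, 3 genes passed, Myh11, Mylk and Synpo2. The corresponding difference for Myh11 after 5 weeks was 1.06 (SE 0.5, adjusted p = 0.679). Between 20 and 5 weeks 0 of 31 genes passed by limma, and 0.0211% of all genes did. None of the 31 had an unadjusted p under 0.05, where 6.11% of all genes were.

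Against ZS, 8 of 31 genes fell in the 5-week group, while 4.48% of all genes did: Actg2, Cnn1, Tagln, Des, Myl9, Tpm1, Flna and Chrm2. Cnn1 had the largest of these changes and fell by 1.76 (SE 0.54, adjusted p = 0.0402 by limma). Without ZS array 20 none passed, without ZS arrays 16, 17 or 19 or 5-week arrays 6, 7 or 10 between 1 and 3 did, and without 5-week array 9, the highest of its group, 14 did. In the 20-week group 0 of 31 passed by limma against ZS, where 1.8% of all genes fell; all 31 were below 0, with a median of -0.62 and 16 at an unadjusted p under 0.05, where 18.9% of all genes were. That genes passed against ZS in 1 group and not in the other is not itself a difference between these groups. The direct comparison of 20 with 5 weeks above called none of the 31 genes. The core genes were 0.06 to 0.51 higher after 20 weeks, less than the SDs of the core mean, 1.05 and 1.09. That comparison could therefore not decide whether the groups differ.

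Other genes of the smooth muscle apparatus were measured as well. The 53 measured ones were genes of adhesion, calcium handling, light chain phosphatase and cyclic GMP signalling. On ZD in unedited rats 20 fell, 1 rose and 32 did not pass, with a median change of -0.42. Of all 14217 genes, 988 fell and 986 rose. The 1 gene of the list that rose, named after its values were seen, was Atp2a2, the calcium pump that Pln restrains. Rbpms, an RNA-binding protein of smooth muscle, fell by 1.78 (SE 0.43), and Irag1, which couples cyclic GMP kinase to calcium release, fell by 1.67 (SE 0.41). Itpr1, the calcium release channel on which Irag1 acts, fell by 0.98 (SE 0.17, adjusted p = 0.000427 by limma), and Ppp1r12b, a myosin phosphatase subunit, fell by 0.8 (SE 0.19). In knockout rats 18 of the 53 fell, against 12% of all genes, and none rose. Itpr1 there changed by 0.02 (SE 0.17) and Ppp1r12b by 0.33 (SE 0.2).

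The genes most like the core over the 20 unedited arrays, outside the 33, were Dtna (dystrobrevin, a membrane linker, Pearson's r = 0.984), Irag1 (0.983), Rbpms (0.982), Lims2 (0.978), Tns1 (0.974), Spink8 (0.97), Hspa2 (0.969), Fermt2 (0.968), Pbxip1 (0.966) and Pcp4l1 (0.964). These values include the diet difference and describe likeness over shared arrays. Among the members outside the core, the highest r was that of Synpo2 (0.988) and the lowest that of Chrm2 (0.435).

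**Figure D5:**
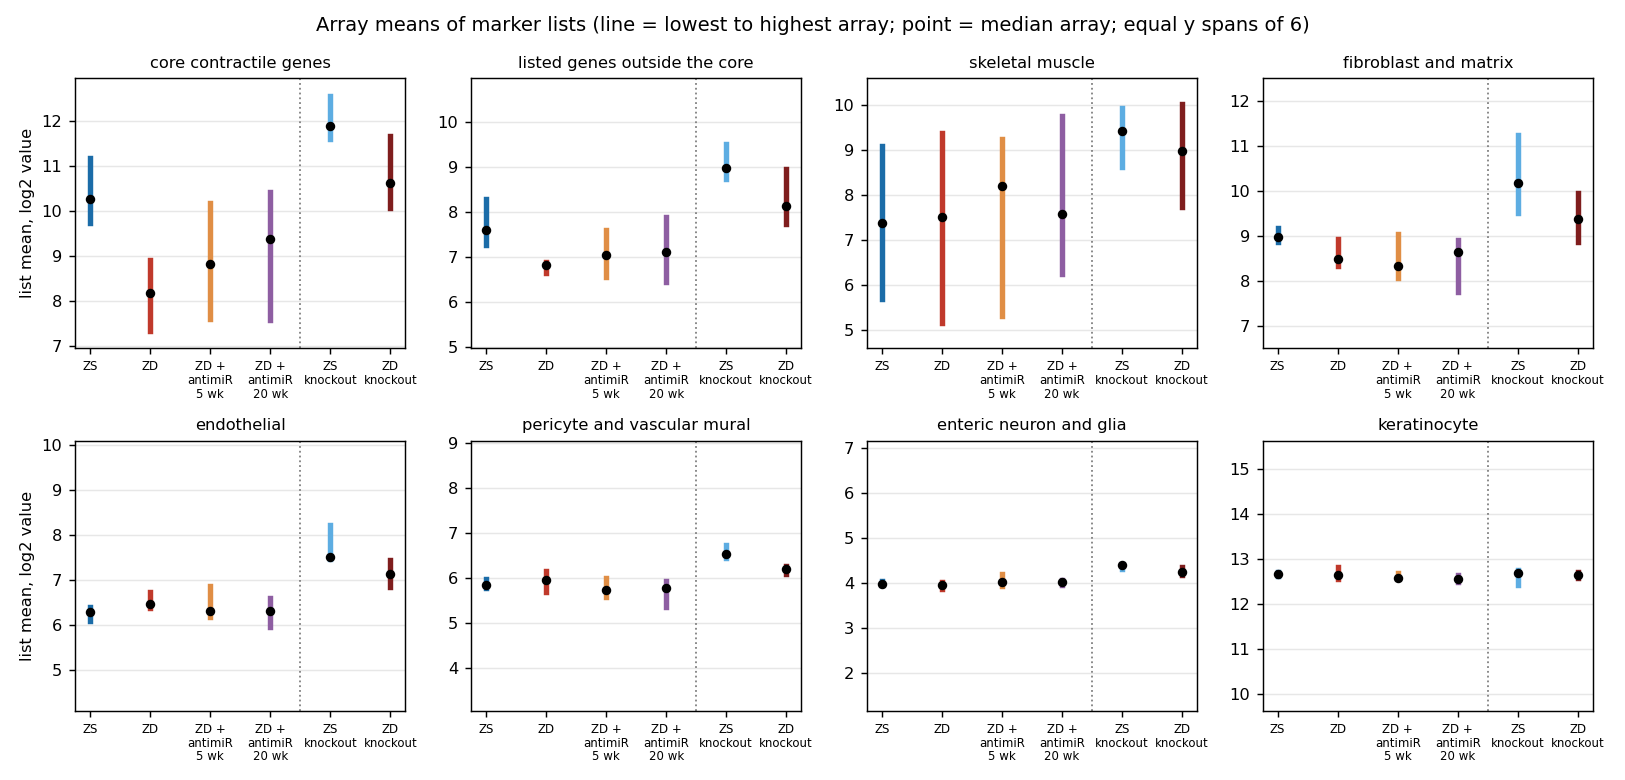
Mean log2 value of each marker list per array (y axes, equal spans of 6) in the 6 groups (x axis); lines run from the lowest to the highest array and points are the median array. The core falls from ZS to ZD in unedited rats by more than any other list shown, and the skeletal muscle list varies widely within groups.

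Markers of other cell types under or in the epithelium did not share one pattern with diet. Of all 14217 genes, 988 fell and 986 rose on ZD in unedited rats. The skeletal muscle list averaged 5.68 to 9.08 on ZS and 5.16 to 9.37 on ZD, 0 of its 17 genes passed by limma and 1 had an unadjusted p under 0.05, as did 28% of all genes. Of 14 fibroblast and matrix genes 0 passed by limma, 4 had an unadjusted p under 0.05 and 13 were below 0, with a median change of -0.44 and list means of 8.86 to 9.17 on ZS and 8.34 to 8.93 on ZD. Of 8 pericyte genes 1 rose and none fell, with 6 below 0 and a median change of -0.13; the gene that rose was Rgs5, by 1.38 (SE 0.21). Of 10 endothelial genes 2 rose and none fell, with 8 above 0 and a median change of 0.25, and the receptors Flt1 and Kdr rose by 0.71 (SE 0.16) and 0.68 (SE 0.21). No gene passed by limma among 10 of enteric neurons and glia, with 0 at an unadjusted p under 0.05, or among 2 of interstitial cells of Cajal, with 1. Of 11 keratinocyte genes, 2 fell, the envelope proteins Evpl (-0.5, SE 0.13) and Ppl (-0.41, SE 0.13). Apart from the skeletal muscle covariate among the alternative fits, the part of these lists in the muscle gene changes was not tested.

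In knockout rats 7 of 14 fibroblast and matrix genes fell, with a median change of -0.89 and list means of 9.52 to 11.25 on ZS and 8.87 to 9.95 on ZD, and 4 of 10 endothelial genes (Cldn5, Egfl7, Esam and Tie1) and 2 of 8 pericyte genes (Abcc9 and Kcnj8) fell, named after their values were seen. Of 17 skeletal muscle genes, 1 fell, Myh1 (-0.41, SE 0.1). Of all 14217 genes, 1702 fell and 1347 rose in knockout rats. The keratinocyte list means were 12.42 to 12.76 on ZS and 12.58 to 12.72 on ZD, and 1 of its 11 genes passed, Perp, which rose by 0.18. Apart from the skeletal muscle covariate, the part of these lists in the knockout result was not tested.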

How the data were processed

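The authors deposited 1 log2 value per probe set and array, made with Affymetrix Expression Console and RMA, per the submitters' processing notes; RMA corrects background, makes the distributions of arrays alike and sums probes, so a change shared by most genes is removed. Probe sets with 1 gene symbol were used. Linear models were fitted with limma 3.58.1 in R 4.3.3 to all 30 arrays, 1 coefficient per group, and p-values were adjusted over 14217 genes (Benjamini-Hochberg, threshold 0.05, two-sided). The core (Acta2, Actg2, Myh11, Cnn1, Tagln, Des, Mylk and Myl9) was subtracted array by array to compare genes with it. The named genes are all measured members, up to 4 genes per list with the smallest adjusted p for diet in unedited rats, and the 10 most like the core. Members, lists and the core were chosen with earlier results of these data known. On simulated data for diet in unedited rats, 96 of 100 genes changed by 1 and 71 of 100 changed by 0.5 were recovered. Relative to the core, 6 of 8 genes made to depart by 1 were called, and so were 2 of 23 with no departure. The simulated noise was independent between genes, and the listed genes shared an array factor with an SD of 0.5. On the real arrays the core mean had within-group SDs of 0.41 to 1.09, so these rates need not hold for them. Precision is limited by 4 to 6 arrays per group. Within groups, arrays correlated at 0.977 or more.

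The alternatives were quantile normalization, median centring, no dim genes, trend and robust fitting, array weights, fewer arrays, other probe sets, a skeletal muscle covariate, a core of 13 genes and each array left out. Exact permutation tests and a fit of all probe sets were added after the data were seen.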

Additional observations from a re-analysis of the deposited data

Results flagged for a closer look

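Single arrays stood apart from the rest of their group in 7 of 192 sets of values (a gene or the core mean in a group of 4 to 6 arrays); chance alone puts about 1 in 20 such sets there. On ZS array 19, the array with the highest core level of its group, Flna was 11.09 against 9.63 to 9.96 on the other 4. The same array had Tacr2 at 5.89 against 4.28 to 4.62, Chrm3 at 5.46 against 4 to 4.33, Kcnmb1 at 4.75 against 3.81 to 4.07, and Pde5a at 5.67 against 4.91 to 5.12. On ZD array 12, the array with the lowest core level of its group, Smtn was the highest at 7.34 against 6.91 to 7.03 and Flna at 9.21 against 8.91 to 8.96.

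For 2 genes the diet change differed between knockout and unedited rats by the limma test of the difference. P2rx1 had a difference of -1.19 and Chrm2 one of 0.31, both given with their values in the results.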

How the results depend on the processing

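In unedited rats the count of genes that fell stayed within 1.5 times of 19 under every alternative run, at 15 to 19 with each array left out, and the count relative to the core was 14 to 19. Without the dimmest 30% of genes that second count was 11, with fewer of the 31 genes tested. In knockout rats 9 to 22 fell with each array left out, 9 of them without ZS array 32. There the count relative to the core was 0 to 3, with 0 without ZS array 32 or ZD arrays 37, 38 or 39; it was 0 without the dimmest genes, 15 with array weights, 6 with only the groups compared, 6 with only arrays of the same set, 6 with the second probe set and 17 by the exact test.

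For 20 weeks of antimiR against ZD, array weights gave 3 genes and leaving out arrays 0 to 3. For 20 weeks against ZS the range was 0 to 2, with 2 without array 4 (Des and Synm). For 5 weeks against ZS, array weights gave 14, only the groups compared 1 (Tacr2), only arrays of the same set 3 (Tacr2, Chrm2 and Pln), and leaving out arrays 0 to 14. The difference of diet changes between genotypes passed for 0 to 2 genes with arrays left out, 0 without ZS array 32 of the knockout rats. It passed for 1 gene with median centring, trend and robust fitting, only the groups compared or the skeletal muscle covariate (P2rx1), 1 with array weights (Chrm2) and 0 without the dimmest genes. Leaving out arrays gave 0 throughout for 5 weeks against ZD and for 20 against 5 weeks. With the second brightest probe set, 3 changes took the other sign or lost it: Tpm2 in unedited rats (0.27), Vcl in knockout rats (0.42) and Synm in knockout rats (0). The cause was not tested.

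No paired analysis was possible because no sample number occurs in more than 1 group. The estimation of array weights stopped before its convergence tolerance in some fits. The number of arrays limits the precision.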
